A study of Mus musculus with 9 samples.

Results

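The 10 genes described here encode AP-1 subunits and other immediate early factors: Fos, Fosb, and Fosl2 of the FOS family; Jun, Junb, and Jund of the JUN family; and Atf3, Egr1, Myc, and Ier3. They were chosen by name, with earlier results of these data known, from the 24326 genes with an FPKM (a read level divided by transcript length and by library depth) in every mouse. RNA came from whole livers of wild-type C57BL/6 mice, collected 48 hours after treatment. There were 3 mice given FGK45, an agonist antibody against CD40 (anti-CD40 mice 2, 5, and 9), compared with 6 controls (numbers 3, 4, 7, 8, 11, and 12), whose treatment the labels give as PBS. Age, sex, and dose were not given in the labels. Libraries were made with QuantSeq, which reads transcripts from the 3′ end, so levels of different genes were not compared with each other.

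Immediate early genes are transcribed within minutes of a stimulus because the factors that switch them on are already present in the cell and need only be modified, mainly by MAP kinases, NF-κB signaling, and serum response factor. FOS proteins pair with JUN proteins to form AP-1, which binds DNA and drives genes of inflammation, matrix remodeling, and proliferation. In the liver, these genes are known for their brief induction after injury or partial hepatectomy.

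Of the 10 genes, 9 had a mean FPKM of at least 0.1 and were tested, and 7 were higher after anti-CD40 at an adjusted p under 0.05 from limma: Ier3, Myc, Atf3, Jun, Fos, Fosl2, and Junb. None was lower, Jund and Egr1 did not pass, and Fosb was too low to be tested across genes. Among all 13807 genes tested, 45.1% passed, 23.5% higher and 21.7% lower. The median log2 fold change was 1.66 over the 9 genes and 0.0056 over all genes tested, and all 7 genes that passed changed at least 2-fold. In 6 of the 9 genes (all 7 except Fos), every anti-CD40 mouse was above every control mouse, as in 22.7% of all genes tested. In none was every anti-CD40 mouse below every control, as in 19.6% of all genes tested, so that 42.4% of all genes had groups apart in either direction. In bulk liver, a change in the number of cells of a type and a change in RNA per cell cannot be told apart.

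**Figure D1:**
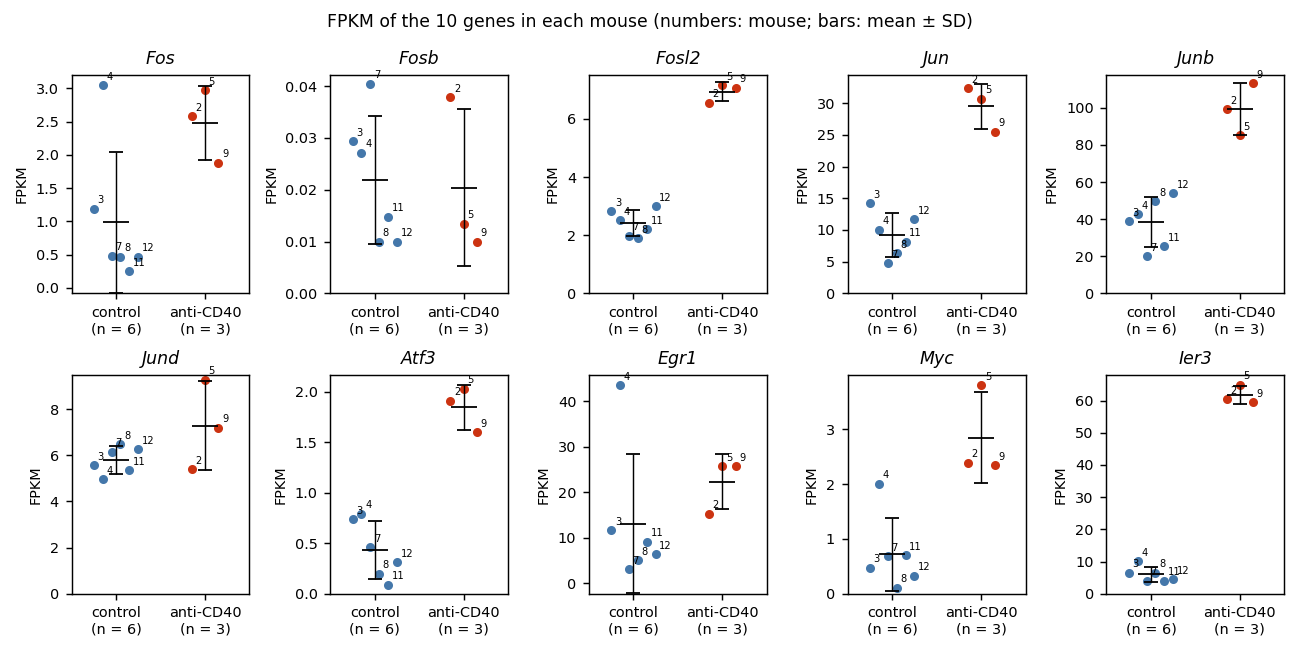
FPKM of each of the 10 genes by mouse (points), with the mean and SD of the 6 control and 3 anti-CD40 mice; each panel has its own linear axis. Ier3, Fosl2, Jun, Junb, Atf3, and Myc do not overlap between groups, whereas 1 control mouse, mouse 4, reaches or exceeds the anti-CD40 mice for Fos and Egr1.

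The DNA just upstream of the start of transcription is shown for 4 of these genes, Ier3, Jun, Fos, and Atf3, because they differ in the motifs they hold while all 4 were higher after anti-CD40. RefSeq on GRCm38.p6 (mm10) gave an entry for 8 of the 10 genes, all but Egr1 and Myc, and each sequence is the 250 bases before the start, on the strand of the gene. Capitals mark motif matches. The κB consensus, GGG[AG]NN[CT]{2}CC (brackets hold alternatives), lies on the other strand in Ier3 at -92 to -83 and in Fos at -214 to -205. On the strand of the gene are the CRE-like element TGACATCA in Jun at -45 to -38 and the CRE core TGACGT in Fos at -66 to -61. Atf3 holds, on the other strand, the CRE core at -8 to -3 and the ATF4-type motif TGATGNAA at -110 to -103. The windows are chr17:35821463-35821712 (+) for Ier3, chr4:95052223-95052472 (-) for Jun, chr12:85473640-85473889 (+) for Fos, and chr1:191183334-191183583 (-) for Atf3. The window of Fos ends short of its deposited locus, which starts at 85473901, so its motif positions count from the RefSeq start.
Ier3: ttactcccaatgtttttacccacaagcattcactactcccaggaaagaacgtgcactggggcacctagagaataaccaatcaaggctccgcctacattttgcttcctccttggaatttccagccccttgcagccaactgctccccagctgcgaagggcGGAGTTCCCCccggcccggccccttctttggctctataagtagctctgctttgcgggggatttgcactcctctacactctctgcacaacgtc
Jun: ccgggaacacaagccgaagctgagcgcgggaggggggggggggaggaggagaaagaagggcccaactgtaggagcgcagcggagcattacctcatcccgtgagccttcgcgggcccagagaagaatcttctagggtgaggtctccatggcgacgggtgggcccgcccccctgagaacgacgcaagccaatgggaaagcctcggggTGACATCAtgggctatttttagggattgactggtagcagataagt
Fos: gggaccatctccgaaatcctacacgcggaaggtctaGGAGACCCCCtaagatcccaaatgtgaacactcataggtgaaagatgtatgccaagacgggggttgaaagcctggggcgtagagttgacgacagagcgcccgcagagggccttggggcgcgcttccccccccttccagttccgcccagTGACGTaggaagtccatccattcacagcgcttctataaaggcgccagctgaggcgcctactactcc
Atf3: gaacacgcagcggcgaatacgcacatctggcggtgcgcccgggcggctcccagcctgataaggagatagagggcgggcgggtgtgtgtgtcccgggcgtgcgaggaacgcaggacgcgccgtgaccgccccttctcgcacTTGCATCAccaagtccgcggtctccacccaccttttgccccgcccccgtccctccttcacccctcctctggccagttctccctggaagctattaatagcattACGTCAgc

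The same search, on both strands, found the κB consensus in 4 of the 8 genes with an entry (Fos, Fosb, Fosl2, and Ier3) and in 7.25% of 32851 mouse promoter windows of this length. The GC content of these 4 windows was 54.4% to 68.8%. The other windows were not matched for it, and enrichment was not tested. The pair in Fosl2, at -182 to -173 and -181 to -172, overlaps and is 1 stretch read on either strand. The EGR motif GCGNGGGCG lay in Fosb at -50 to -42 and in Fosl2 at -79 to -71, and in 4.7% of all windows. The CRE core was in 6.47% of windows, the CRE-like element of Jun in 2.93%, and the ATF4-type motif in 3.45%. No window of the 8 genes held the full CRE TGACGTCA (which contains the core; 1.55% of windows), the AP-1 site TGANTCA (6.75%), the CArG box (1.47%), the STAT motif TTCNNNGAA (7.02%), or the E-box CACGTG (6.02%). Junb and Jund held none of the motifs searched. A match shows only that these letters stand in the window.

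Ier3, an early response gene whose product modulates NF-κB and ERK signaling and cell survival, changed most of the 10 genes. It lies at chr17:35821713-35822911 on the plus strand. Anti-CD40 mice 2, 5, and 9 had 60.5, 65.0, and 59.6 FPKM, and the 6 controls ran from 4.01 to 10.03 with a median of 5.57. The anti-CD40 mice lay close together, and the lowest of them was far above the highest control, mouse 4. The means were 61.7 ± 2.87 (SD, n = 3) and 5.98 ± 2.30 (SD, n = 6), a 10.3-fold difference. On the scale of log2(FPKM + 0.1), used for every log2 fold change here, the change was 3.42 (standard error 0.27, 95% interval 2.83 to 4.01, limma adjusted p = 5.41e-06).

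In the FOS family, Fos and Fosl2 were higher after anti-CD40, whereas Fosb stayed at a few reads in either group. Fosl2 encodes FRA-2, a FOS family protein that is induced later and lasts longer than FOS, and it lies at chr5:32136472-32157839. It reached 6.56, 7.16, and 7.06 FPKM after anti-CD40 and lay between 1.90 and 3.00 (median 2.36) in controls. The groups were well apart and both were tight. By the steps between low FPKM values, these levels rest on 777 to 846 reads per anti-CD40 mouse and 184 to 306 per control mouse (the smallest whole numbers that give the values). Its log2 fold change was 1.51 (standard error 0.16, 95% interval 1.15 to 1.87, limma adjusted p = 4.09e-05).

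Fos, the founding member of the family and a standard marker of recent stimulation (chr12:85473901-85477270), had an FPKM of 2.58, 2.97, and 1.88 in the anti-CD40 mice. In the control mice it ranged from 0.252 to 3.05, with a median of 0.477. The groups overlapped because of 1 mouse: control mouse 4 was above every anti-CD40 mouse, while the next control was at 1.19 and 5 of 6 controls lay below the lowest anti-CD40 mouse. These values rest on 69 to 117 reads per anti-CD40 mouse and 9 to 119 per control mouse. The log2 fold change was 1.66 (standard error 0.58, 95% interval 0.36 to 2.95, limma adjusted p = 0.0401), and the exact permutation test, which can go no lower than 0.0238 with 3 against 6 mice, gave p = 0.0952 (2-sided). The limma call is the weakest of the 7. It was lost with no filter on low values (adjusted p = 0.126), with quantile normalization (0.0613), and on leaving out anti-CD40 mouse 2, 5, or 9 or control 7, 8, 11, or 12 (up to 0.122). With control mouse 4 left out, it was 2.05 (limma adjusted p = 0.00124).

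Fosb, whose product also pairs with JUN proteins (chr7:19302696-19310045, minus strand), was at 0.0379 and 0.0134 FPKM in anti-CD40 mice 2 and 5 and at the floor of the deposited values, 0.01, in mouse 9. The 3 anti-CD40 mice held 4 reads in all and the 6 control mice 8. A difference could not be detected at this depth (exact permutation p = 0.929). Fosl1, the remaining FOS family gene, was at the floor in all 9 mice.

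In the JUN family, Jun and Junb were higher and Jund did not pass the test. Jun, the principal partner of FOS proteins (chr4:95049036-95052222, minus strand), had an FPKM of 32.4, 30.7, and 25.5 in the anti-CD40 mice. The control mice ranged from 4.75 to 14.2, with a median of 9.11. Every anti-CD40 mouse was above every control, and the level in control mice varied 3.00-fold from lowest to highest. Its log2 fold change was 1.76 (standard error 0.30, 95% interval 1.08 to 2.43, limma adjusted p = 9.10e-04), on 1479 to 2141 reads per anti-CD40 mouse and 294 to 811 per control mouse.

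Junb, a JUN protein that is a weaker activator than JUN and can oppose it (chr8:84976909-84978748, minus strand), was at 99.3, 85.3, and 113 FPKM after anti-CD40. The control values ran from 19.9 to 53.9, with a median of 40.8. Again no control reached the anti-CD40 mice, and the log2 fold change was 1.44 (standard error 0.30, 95% interval 0.78 to 2.1, limma adjusted p = 0.00266). Jund, the JUN family member known for steady rather than inducible transcription (chr8:70697739-70700616, plus strand), was at 5.40, 9.27, and 7.20 FPKM in mice 2, 5, and 9, against 4.96 to 6.49 (median 5.85) in control mice. Mouse 2 lay within the control range and the others above it. The log2 fold change of 0.30 (standard error 0.17, 95% interval -0.07 to 0.67, limma adjusted p = 0.172) did not pass, although it was 0.50 without anti-CD40 mouse 2 (limma adjusted p = 0.0381) and 0.66 (limma adjusted p = 0.00642) when the mice were rescaled without the 3 Saa genes, which moved the median of all genes by 0.34 and left Jund 0.31 above it. GENCODE places antisense genes over Jun (Junos) and Jund (Gm11175), and the strand setting used for counting was not given in the sources used here, so reads of these pairs may not be told apart.

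Since members of a family were measured in the same mouse, their log2 difference within each mouse was compared between groups for the 6 pairs within families, with exact permutation tests adjusted over the 6 pairs. Jund minus Jun averaged -2.03 ± 0.46 (SD, n = 3) in treated mice against -0.57 ± 0.65 (SD, n = 6) in controls, a shift of -1.46 with no overlap (exact permutation p = 0.0238, adjusted 0.0476). Junb minus Jund shifted by 1.14 the other way, again with no overlap (exact permutation p = 0.0238, adjusted 0.0476). The shift of Junb minus Jun was -0.31 (exact permutation p = 0.452) and that of Fosl2 minus Fos was -0.15 (exact permutation p = 0.881). In these mice Jund thus moved less than both of its relatives, with no overlap of the groups. No difference between the changes of Jun and Junb, or of Fos and Fosl2, was detected. Fosl2 minus Fosb shifted by 1.53 (exact permutation p = 0.0238, adjusted 0.0476) and Fosb minus Fos by -1.68 (exact permutation p = 0.0714, adjusted 0.107), but with Fosb at a few reads these shifts follow Fosl2 and Fos. The adjusted p of both Jund pairs passes only because Fosl2 minus Fosb also reached the lowest p possible, so the adjustment adds little support. With a pseudocount of 0.01 in place of 0.1, the adjusted p of each of the 3 pairs that passed was 0.0714.

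**Figure D2:**
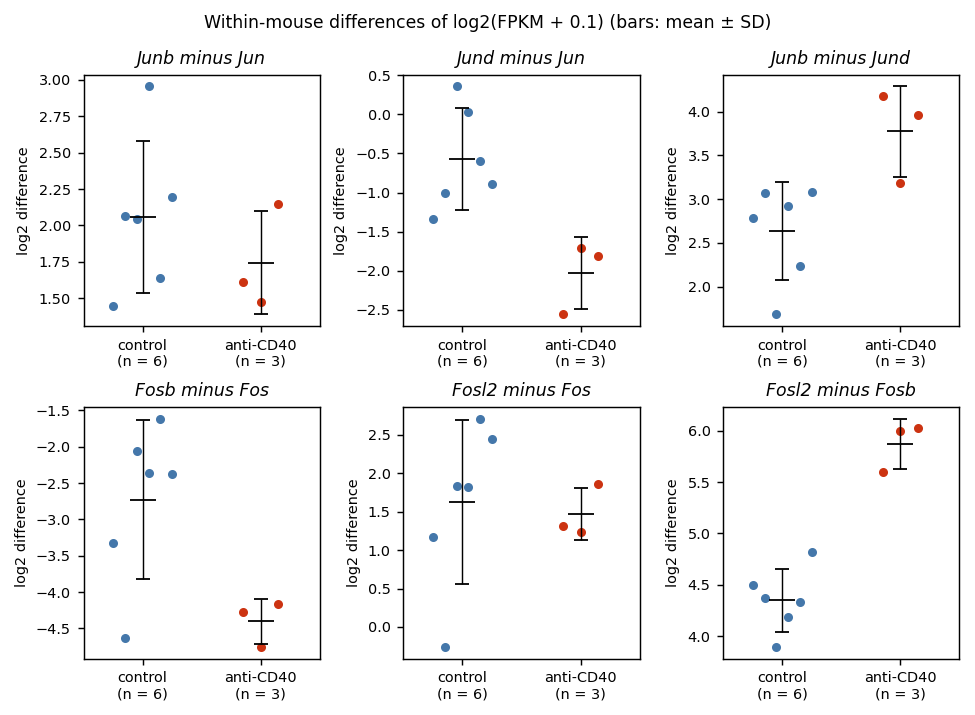
Within-mouse differences of log2(FPKM + 0.1) for the 6 pairs of genes within the FOS and JUN families, by group (points are mice, bars are mean and SD). Jund minus Jun lies lower in all 3 anti-CD40 mice than in any control, and Junb minus Jund lies higher.

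Atf3, a stress-induced ATF/CREB family factor that pairs with JUN proteins and often represses its targets (chr1:191170297-191183333, minus strand), had an FPKM of 1.91, 2.03, and 1.60 after anti-CD40. In control mice it ranged from 0.0896 to 0.793, with a median of 0.388. All anti-CD40 mice were above all controls, but the control level was low and varied 8.85-fold. It rests on 55 to 75 reads per anti-CD40 mouse and 3 to 29 per control mouse. On the log2 scale it rose by 2.07 (standard error 0.45, 95% interval 1.06 to 3.07, limma adjusted p = 0.00388).

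Myc, a transcription factor of growth and proliferation (chr15:61985341-61990361, plus strand), was at 2.39, 3.81, and 2.35 FPKM after anti-CD40. The control mice ranged from 0.107 to 2.01, with a median of 0.580. Control mouse 4 came close to the anti-CD40 mice, and the next control was at 0.700. On the log2 scale it rose by 2.17 (standard error 0.57, 95% interval 0.90 to 3.45, limma adjusted p = 0.0107), and it passed without any 1 mouse (adjusted p at most 0.0491). The control level was low and varied 18.8-fold, and the number of reads behind it could not be recovered.

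Egr1, a zinc finger factor and a direct target of serum response factor and ELK proteins, lies on chromosome 18. It was at 15.3, 25.8, and 25.8 FPKM after anti-CD40. The control values ran from 3.04 to 43.5, with a median of 7.74, and the highest was again mouse 4, above every anti-CD40 mouse, with the next control at 11.6. Its log2 fold change of 1.29 (standard error 0.66, 95% interval -0.18 to 2.77, limma adjusted p = 0.140) did not pass, and the exact permutation test gave p = 0.190. Without control mouse 4 it was 1.75 (limma adjusted p = 0.00472), and with array weights, which give less weight to mice that vary more, it was 1.45 (limma adjusted p = 0.0252).

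**Figure D3:**
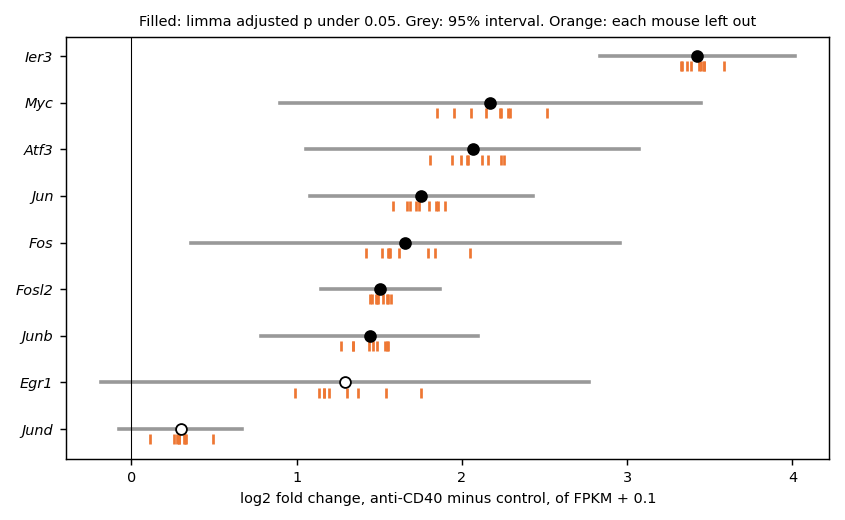
Log2 fold change (anti-CD40 minus control, on log2(FPKM + 0.1)) of the 9 genes tested (points, filled where the limma adjusted p is under 0.05), with 95% intervals from limma (grey) and the value on leaving out each mouse (orange ticks). Ier3 stands highest at 3.42, and the intervals of Jund and Egr1 include 0.

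The 10 genes differed in how steady they were among control mice. The SD of log2(FPKM + 0.1) over the 6 controls was larger for Egr1 than for 98.6% of all genes tested, larger for Fos than for 97.9%, for Myc than for 97.7%, and for Atf3 than for 95.7%. Jund was among the steadiest, with only 11.5% of genes below it, and Fosl2 stood at 39.6%. These ranks were not matched for level. Control mice held 3 to 29 reads for Atf3 and 9 to 119 for Fos, and Myc was as low as 0.107 FPKM. Among anti-CD40 mice the spread was smaller in most of the 10 genes: the coefficient of variation of Fos was 22.3% against 108% in controls, that of Egr1 27.2% against 116%, and that of Ier3 4.66% against 38.5%. Control mouse 4 enlarged these control values. In a check chosen after seeing the data, they were 62.7% for Fos, 48.2% for Egr1, and 25.2% for Ier3 without it. They stayed above the values of the anti-CD40 mice. Jund went the other way, with 26.6% against 10.3%, as did Fosb at its few reads.

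Control mouse 4 was the highest control for 5 of the 9 genes tested (Fos, Atf3, Egr1, Myc, and Ier3), as it was for 27.4% of all genes tested. It was also the highest control for 17 of 35 other immediate early genes, while for Jund it was the lowest. The same mouse had the highest summed FPKM of 6 erythroid markers among controls (41000, the next control 10893) and of 11 neutrophil markers (156, the next 83.2). It was also highest for the markers of B cells (7.18, the next 3.77), stellate cells (325, the next 284), and cholangiocytes (17.6, the next 15.2), and lowest for those of hepatocytes (17650, the next 20196), sinusoidal endothelium (108, the next 111), and pancreas acinar cells (70.3, the next 73.2). Sums follow the most abundant genes, and single markers differed. Mouse 4 was the highest control for Cps1 and Tat of hepatocytes and Lyve1 and Oit3 of endothelium. The stellate markers Lrat and Acta2 were highest in mouse 7, Reln in mouse 3, and Des in mouse 12. Of the cholangiocyte markers, Epcam and Spp1 were highest in mouse 3 and Sox9 in mouse 12. Cd79a of B cells was highest in mouse 3 and Cxcr2 of neutrophils in mouse 7. By mean log2 level, mouse 4 was also highest for Kupffer cell and for monocyte and macrophage markers. Whether these cells have a part in the immediate early levels of mouse 4 was not tested. Without mouse 4 the 7 genes still passed and Egr1 passed as well, so that 8 were higher.

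**Figure D4:**
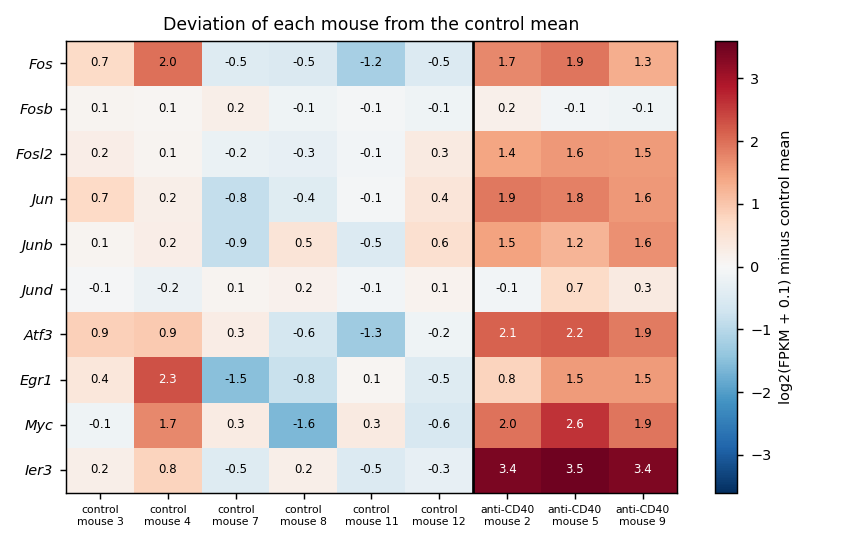
Deviation of log2(FPKM + 0.1) from the mean of the control mice, by gene and mouse (color and printed number, log2 units). The anti-CD40 columns are positive for every gene but Fosb in mice 5 and 9 and Jund in mouse 2. Control mouse 4 stands out in Egr1, Fos, and Myc.

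Of 22 other AP-1 and related bZIP factors tested, 9 (40.9%) were higher and 2 (9.09%) lower, beside 23.5% and 21.7% of all genes, with a median log2 fold change of -0.0005. The largest increases were those of the BATF genes, AP-1 partners that pair with JUN proteins in immune cells, and of Ddit3, the stress factor CHOP. Batf was at 0.377 ± 0.198 FPKM in controls (SD, n = 6) and 3.58 ± 0.123 in anti-CD40 mice (SD, n = 3), a rise of 3.05 on the log2 scale, and Batf2, Batf3, and Ddit3 rose by 1.58, 1.47, and 1.63 on that scale. Atf5, a bZIP factor abundant in liver, fell by 0.91 on the log2 scale and Mafg, a small MAF protein, fell by 0.54. With quantile normalization neither passed (limma adjusted p = 0.0528 for Atf5 and 0.0867 for Mafg), and without the Saa genes Mafg did not (limma adjusted p = 0.272).

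Of 35 other immediate early genes tested, 11 (31.4%) were higher, near the 23.5% of all genes. Only 1 (2.86%) was lower, beside 21.7% of all genes. The median log2 fold change of the list was 0.56, beside 0.0056 over all genes tested. The increases were largest for Dusp2, a phosphatase of MAP kinases (log2 fold change 2.99), for Egr2 (2.80) and Egr3 (2.20), relatives of Egr1, and for Ier5 (1.95). Egr2 went from 0.0434 ± 0.0318 FPKM (SD, n = 6) to 0.888 ± 0.152 (SD, n = 3). Egr2 and Egr3 (0.0740 FPKM in controls) were below the filter of 0.1 in controls and were tested only through the anti-CD40 mice. Their place among the increases is therefore no independent result. The 1 lower gene, Phlda1, named after its value was seen, had overlapping groups (limma adjusted p = 0.0495). It did not pass with a pseudocount of 1, no filter, quantile normalization, the Saa genes left out, no trend, or array weights, nor on leaving out anti-CD40 mouse 2 or 5 or control 3, 7, or 12 (limma adjusted p up to 0.181). Genes that did not pass, also chosen after their values were seen, included Ier2 (log2 fold change 0.07), Zfp36 (0.04), which promotes decay of inflammatory mRNAs, Nr4a1 (1.27, adjusted p = 0.252 from limma), and Dusp1 (0.69, adjusted p = 0.137 from limma).

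Upstream of AP-1, 9 of 28 genes of the MAP kinase cascade, SRF, and ELK factors (32.1%) were higher and 6 (21.4%) lower, near the 23.5% and 21.7% of all genes (median log2 fold change 0.05). Mapk13 and Mapkapk3 of the p38 branch rose by 1.95 and 1.52, Map3k14, the NF-κB inducing kinase that acts below CD40, by 1.26, and Mkl1, a coactivator of SRF, by 1.19. Map2k6 and Map2k3, the kinases that activate p38, fell by 1.39 and 0.69 and Map3k7, encoding TAK1, fell by 0.77, all on the log2 scale. Of 17 MAP kinase phosphatases and feedback inhibitors, 2 (11.8%) were higher, Dusp2 and Dusp8, and none lower, beside 23.5% and 21.7% of all genes. Dusp8 rose by 1.09 on the log2 scale (with quantile normalization by 0.64, limma adjusted p = 0.0867). It averaged 0.0481 FPKM in controls and passed the filter only through the anti-CD40 mice, so its count as higher is no independent result. Dusp8 lies just above the filter on low values. It was not tested at a mean FPKM of at least 1 or on leaving out any anti-CD40 mouse, and 1 phosphatase was higher there.

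Of 23 genes known as AP-1 targets, 20 (87.0%) were higher and none lower, with a median log2 fold change of 2.86, beside 23.5% higher among all genes. The list was compiled with results of these mice known, so its share is not independent evidence of a direction. Il6, counted among the 20, averaged under 0.1 FPKM in controls and was tested only through the anti-CD40 mice. The chemokine genes Ccl2 and Cxcl2 rose by 5.75 and 5.15 on the log2 scale, and Timp1, an inhibitor of matrix proteases, by 5.35. Ccl2 was at 102 to 190 FPKM in anti-CD40 mice and 0.555 to 10.3 in controls. Many genes of this list are also targets of NF-κB and are expressed by myeloid cells. Beside them, all 9 neutrophil markers tested of 12 listed were higher (summed FPKM 4220 to 5207 against 18.4 to 156) and so were 9 of 10 monocyte and macrophage markers (830 to 1126 against 87.3 to 198). Of these, Ltf, Mmp8, Cxcr2, Ngp, and Chil3 averaged under 0.1 FPKM in controls. They passed the filter only through the anti-CD40 mice, so their count as higher is no independent result. Mpo and Elane were below the filter, and Ly6g was absent. The part of neutrophils, monocytes, and macrophages in the values of this list, and in those of the 10 genes, was not tested.

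Around Myc, 3 of 12 genes of the MYC and MAX network (25%) were higher, near the 23.5% of all genes, and 5 (41.7%) lower, beside 21.7%. Mxd3, Mxd1, and Mnt, which compete with MYC for MAX, rose by 2.49, 1.24, and 0.45 on the log2 scale, whereas Mxi1 and Mxd4, of the same kind, fell by 0.90 and 0.75. Mycl, a relative of Myc, fell by 0.87, and it and Mxd4 were named after their values were seen. Mnt did not pass with quantile normalization (limma adjusted p = 0.349). Mlxipl, encoding the glucose-responsive factor ChREBP, fell by 1.60 and its partner Mlx by 0.83. Of 30 genes known as MYC targets, 10 (33.3%) were higher and 5 (16.7%) lower, beside 23.5% and 21.7% of all genes (median log2 fold change 0.24). Cdk4 rose by 1.38, Nop56, which acts in ribosome assembly, by 1.13, Cad, of pyrimidine synthesis, by 1.02, and Ldha by 0.77, whereas the mitochondrial genes Shmt2, Hspe1, and Hspd1 fell by 1.71, 1.12, and 0.67.

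**Figure D5:**
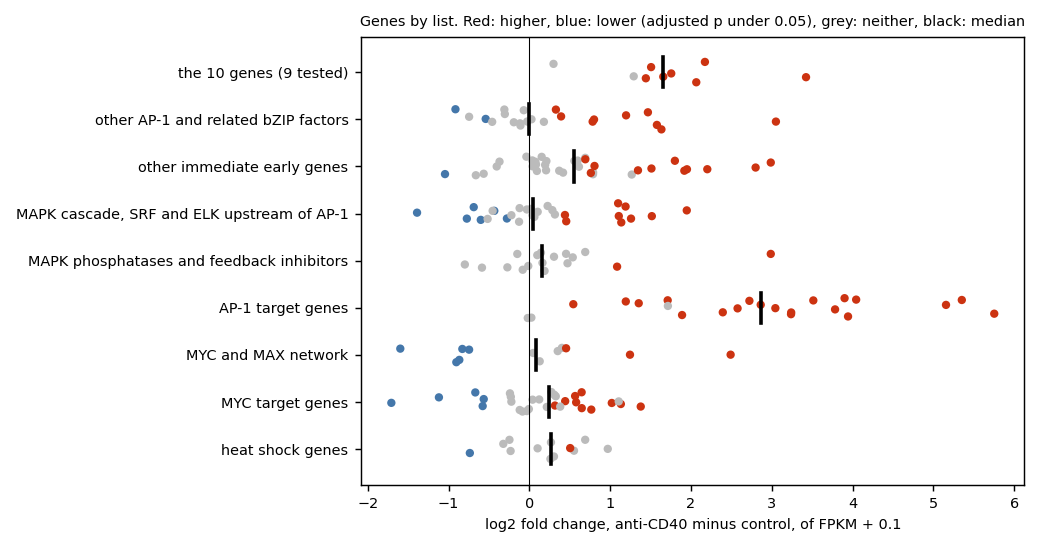
Log2 fold change (anti-CD40 minus control) of each tested gene in the pathway lists (points, red where higher and blue where lower at an adjusted p under 0.05, grey otherwise), with the median of each list (black) and the 9 genes tested in the top line. The AP-1 target genes lie highest, with a median of 2.86, while the other lists have medians between -0.0005 and 0.56.

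The markers of other cells moved as well, beside 23.5% of all genes higher and 21.7% lower. Of 12 hepatocyte markers 8 were lower and 2 higher (summed FPKM 10141 to 11904 against 17650 to 31529, abundant in every mouse), and all 9 Kupffer cell markers were lower. Higher were 8 of 9 T and NK cell markers, all 5 B cell markers tested, and 2 of 5 cholangiocyte markers. Among these, Cd8a and Cd79a averaged under 0.1 FPKM in controls and passed the filter only through the anti-CD40 mice. Of 8 sinusoidal endothelial markers 2 were higher and 4 lower, and of 8 stellate cell markers 2 were higher and 2 lower. None of 5 erythroid and 1 of 8 pancreas acinar markers passed, and the acinar sum was 835 in anti-CD40 mouse 5 and at most 190 in any other mouse. Cpb1, the acinar marker that passed, also averaged under 0.1 FPKM in controls. Saa1, Saa2, and Saa3 made up 25.4% to 25.9% of summed FPKM in anti-CD40 mice and 0.0449% to 0.380% in controls. Of all genes that passed, 52% were higher, and 77.4% with these 3 genes left out. Between 14684 and 15545 genes were above the floor per mouse, and the absolute depth is unknown.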

How the data were processed

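Libraries of 9 mice were made and sequenced by the authors (QuantSeq 3′ FWD, Illumina). Per the labels and methods, reads were aligned to mm10 with STAR and quantified with Cufflinks and CuffDiff. The annotation, the filter, and the strand setting are not given in the sources used here. The authors deposited FPKM with a floor of 0.01 for 24341 gene names, of which 15 with a failed estimate were left out. No scaling was added to the deposited FPKM.

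The log2(FPKM + 0.1) of 13807 genes averaging at least 0.1 FPKM was tested with limma 3.58.1 in R 4.3.3 (lmFit, eBayes with trend), group as the only factor, 2-sided, with Benjamini-Hochberg adjustment at 0.05. This scale understates changes of low genes. Genes below that mean, and differences between genes, were tested with exact permutation over all 84 splits of the mice. The labels name mice but no batch, and p-values measure the spread between these mice. Other steps used Python 3.11.15 (numpy 2.4.6, pandas 2.3.3, scipy 1.17.1), and figures matplotlib 3.10.9. Scripts were tested on simulated data.

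The members and lists were chosen with earlier results of these data known. The lists, compiled from general knowledge, cover bZIP factors, immediate early genes, the MAP kinase cascade and its inhibitors, AP-1 targets, the MYC network and targets, heat shock genes, and cell markers. Genes named were the 10 members, up to 4 largest increases and 3 largest decreases per pathway list (adjusted p under 0.05, groups not overlapping), and per member the 3 genes with the most similar deviations within groups. Exceptions are stated, and a few genes the rule took are not reported here.

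Reads were recovered from steps between low FPKM values: 3204 of 3617 low genes (88.6%) came out whole within 0.05 of a read, as did 6 members, too few for a count test. Starts in the table count from 0, since 8554 of 11759 loci with the same end as RefSeq start 1 base lower, so 1 was added. The alternatives tried were a pseudocount of 1 or 0.01, no filter, a minimum mean FPKM of 1, quantile and median of ratios scaling, leaving out the Saa genes, eBayes without trend or robust, array weights, a 2-fold minimum, and leaving out each mouse.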

Additional observations from a re-analysis of the deposited data

Results flagged for a closer look

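In the 6 control mice, mouse 4 stood apart for 3 of the 16 results examined for a sample far from the others. The gap between mouse 4 and the next control was 0.664 of the whole range of the controls for Fos, 0.787 for Egr1, and 0.689 for Myc, above Dixon's 95% critical value for 6 samples. Chance passes that value in about 1 in 20 groups, or 0.8 of 16 results. On the log2 scale used for the tests the gaps were 0.407, 0.499, and 0.418, all below it. The FPKM in mouse 4 were 3.05 for Fos, 43.5 for Egr1, and 2.01 for Myc, against at most 1.19, 11.6, and 0.700 in the other controls.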

How the results depend on the processing

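No paired analysis was possible because the groups share no mouse number. Of the 10 genes, 6 to 8 were higher and 0 lower under every alternative and without any 1 mouse, and Fosl2, Jun, Junb, Myc, and Ier3 passed each time. Atf3 also passed except at a mean FPKM of at least 1, where it was not tested. Fos was 1.66 (adjusted p = 0.126 from limma) with no filter and 1.38 (adjusted p = 0.0613) with quantile normalization, Jund 0.66 without the Saa genes, and Egr1 1.45 with array weights. Without 1 mouse, log2 fold changes ranged from 1.42 to 2.05 (Fos), -0.12 to 0.042 (Fosb), 0.11 to 0.50 (Jund), and 0.99 to 1.75 (Egr1). With a pseudocount of 0.01, Jund minus Jun was -1.46, Junb minus Jund 1.14, and Fosl2 minus Fosb 1.63 (adjusted exact permutation p = 0.0714). Fosl2 minus Fos was 0.30 with a pseudocount of 1, 0.031 with quantile normalization, and -0.53 to 0.067 without 1 mouse. The causes were not tested.

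Without the Saa genes 5635 genes were higher and 1647 lower, and counts of higher genes were 18 (other immediate early), 14 (MAP kinase cascade), 9 (phosphatases), 5 (MYC network), 18 (MYC targets), and 5 (heat shock), those of lower genes 1 (bZIP), 0 (immediate early), 3 (cascade), 3 (MYC network), and 3 (MYC targets). With array weights 5 of the MYC network were higher, 4 bZIP factors and 1 phosphatase lower. With quantile normalization 0 bZIP, 0 immediate early, 1 phosphatase, and 2 heat shock genes were lower. At a mean FPKM of at least 1, 1 phosphatase was higher and 2 immediate early genes lower. With no filter, 3 of the MYC network were lower. Phlda1 was the lower immediate early gene, and 0 were lower with a pseudocount of 1, with no filter, or without trend, and 2 with robust eBayes. Higher heat shock genes numbered 0 with no filter or without trend, and 2 with a pseudocount of 1, quantile normalization, robust eBayes, or array weights.

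Without 1 mouse, higher and lower genes numbered 5 to 9 and 2 to 3 (bZIP), 9 to 15 and 0 to 2 (immediate early), 7 to 8 and 5 to 7 (cascade), 1 to 3 and 0 to 1 (phosphatases), 19 to 21 and 0 (AP-1 targets), 2 to 4 and 3 to 5 (MYC network), 6 to 11 and 4 to 5 (MYC targets), and 0 to 2 and 1 (heat shock). Depth limits Fosb, Atf3, and Fos, at 0 to 3, 3 to 75, and 9 to 119 reads per mouse. It may also limit Myc, whose reads could not be recovered and whose controls were as low as 0.107 FPKM.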

Other observations

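Of 12 heat shock genes, which encode chaperones induced by protein damage, 1 (8.33%) was higher and 1 (8.33%) lower. Among all genes tested, 23.5% were higher and 21.7% lower. Hsp90aa1 was higher (log2 fold change 0.50, limma adjusted p = 0.0482, overlapping groups, named after its value was seen). Dnaja1, a cochaperone of HSP70, fell by 0.74 on the log2 scale.

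Among 10154 genes averaging at least 1 FPKM, genes whose deviations from the group means over the 9 mice were among the most like those of each gene are given as a description, since the closest of so many is high by selection. For Fos these were Arhgap6, Mcur1, and Rnd3 (Pearson r from 0.966 down to 0.950), for Egr1 Plk2 and Zfp383 (0.933 and 0.925), for Myc Lgmn and Insc (0.970 and 0.963), and for Ier3 Myo9a, Sirt2, and Apela (0.964 to 0.949). Every one of these was highest among controls in mouse 4, as were the 4 genes themselves. For Jun they were 4930511A08Rik, Plekhf2, and Bin1 (0.954 to 0.909), all highest among controls in mouse 3. For Fosl2 they were Sema4c, Ell, and Nuak2 (0.964 to 0.930), for Junb Nfam1, Cdk5r1, and Galc (0.945 to 0.922), and for Jund Eri3, Zmat5, and Arhgef19 (0.911 to 0.899).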
